A study of Mus musculus with 34 samples.

Results

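Tight junction genes carried H3K4me3, a histone mark of promoters in use, near 7 of 9 gene 5′ ends in mouse small intestinal villus cells. The mean signal within 1000 bp was at least 2 there, as it was at 9930 of 21938 protein-coding promoters. Without ApcMin/+ replicate 1, the library highest at most promoters, it reached the minimum of 2 at 6 of the 7, *Cldn4* being the exception. *Ocln* had the highest mean of the 9 genes over the 4 libraries, but ranked 3 in wild-type replicate 1. The genes were *Cldn2*, *Cldn3*, *Cldn4*, *Cldn7*, *Cldn15*, *Cldn23*, *Ocln*, *Tjp1* and *F11r*, chosen by name for their part in the junction, out of 21938 protein-coding genes of GENCODE M21. For each of them the mean signal within 1000 bp of the gene 5′ end was taken, on the genome build mm10. The mark was profiled by CUT&RUN, in which an antibody leads protein A fused to micrococcal nuclease to its target and the DNA released by the nuclease is sequenced. The wild-type group held 2 libraries from wild-type C57BL/6J mice, and the other group held 2 libraries from ApcMin/+ mice of the same strain background. ApcMin/+ mice carry a mutant allele of the tumour suppressor gene *Apc* in all cells of the body. The sample labels give an age of 5 weeks and the design text of the series 5 to 6 weeks. Villus cells had been scraped from small intestine that still looked normal, so each library is a mixture of the cell types of the scraped tissue. The comparison asks whether the mark at promoters differs in this early stage, before tumours are seen.

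The tight junction is the most apical contact between neighbouring epithelial cells, and it seals the space between them. Claudins are membrane proteins whose strands decide which ions and small solutes pass. Some of them tighten the seal and others, such as Cldn2 and Cldn15, form channels for cations and water. Occludin (*Ocln*) and junctional adhesion molecule A (*F11r*) are further membrane proteins of the junction, and ZO-1 (*Tjp1*) is the scaffold that ties them to actin.

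The libraries differed in depth and in their level at promoters as a whole. Wild-type replicate 1 was the shallowest, with 1430000 tags, against 4790000 in wild-type replicate 2 and 3700000 and 5470000 in ApcMin/+ replicates 1 and 2. Signal means coverage at each base, brought by the authors to 10000000 tags a library, and its genome-wide mean was 0.367 in each library. The median tested promoter stood at 4.53 and 3.06 in the wild-type pair and at 13.2 and 4.18 in the ApcMin/+ pair. ApcMin/+ replicate 1 was the highest library at 98.6% of the 9930 promoters tested, those with a mean signal of at least 2. The differences between the genotypes at the junction promoters are therefore also given without this library and relative to the median promoter of each library.

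The promoter sequences of the junction genes are shown first because they differ widely in CpG content, and CpG-rich promoters as a class carried more of the mark in these libraries. RefSeq promoters of GRCm38.p6, from 250 bases before to 50 bases after the start, were found for 8 of the 9 genes, with 2 starts each for *Cldn7* and *Ocln*. Among 32851 promoters of this length, those with 0 to 4 CpG dinucleotides had a median signal of 0.388 and those with 20 or more a median of 5.53. Below, CpG dinucleotides are in capitals and each sequence reads 5′ to 3′ on the strand of its gene. *Tjp1* is shown from chr7:65371195-65371494 (minus strand), *Ocln* from chr13:100552669-100552968 (minus strand) and *F11r* from chr1:171437311-171437610 (plus strand). *Cldn3* comes from chr5:134985964-134986263 (plus strand), *Cldn4* from chr5:134946885-134947184 (minus strand) and *Cldn2* from chrX:139800558-139800857 (plus strand).
Tjp1: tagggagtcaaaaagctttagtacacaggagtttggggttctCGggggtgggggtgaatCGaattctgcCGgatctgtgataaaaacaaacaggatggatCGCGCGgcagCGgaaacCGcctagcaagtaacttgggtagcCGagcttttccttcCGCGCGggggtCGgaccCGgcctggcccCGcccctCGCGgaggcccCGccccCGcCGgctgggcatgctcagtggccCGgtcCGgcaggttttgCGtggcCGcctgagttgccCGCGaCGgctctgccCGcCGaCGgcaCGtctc
Ocln: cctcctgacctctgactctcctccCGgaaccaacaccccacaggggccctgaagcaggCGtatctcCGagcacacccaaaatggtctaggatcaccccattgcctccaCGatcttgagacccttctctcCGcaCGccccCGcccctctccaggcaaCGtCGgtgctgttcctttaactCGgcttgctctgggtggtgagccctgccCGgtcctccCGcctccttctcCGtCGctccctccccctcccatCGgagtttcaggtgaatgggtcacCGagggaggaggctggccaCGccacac
F11r: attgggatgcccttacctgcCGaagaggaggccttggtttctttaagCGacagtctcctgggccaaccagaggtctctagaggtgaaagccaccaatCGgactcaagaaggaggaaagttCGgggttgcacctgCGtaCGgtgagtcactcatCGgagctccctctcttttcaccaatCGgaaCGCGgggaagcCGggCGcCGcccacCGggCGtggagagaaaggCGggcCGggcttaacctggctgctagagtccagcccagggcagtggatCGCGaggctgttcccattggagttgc
Cldn3: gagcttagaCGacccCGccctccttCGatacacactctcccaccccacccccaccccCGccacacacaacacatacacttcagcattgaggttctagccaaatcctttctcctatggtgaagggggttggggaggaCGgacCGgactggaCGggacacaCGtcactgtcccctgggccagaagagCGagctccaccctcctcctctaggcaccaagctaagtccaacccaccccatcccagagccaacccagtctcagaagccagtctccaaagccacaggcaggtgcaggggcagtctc
Cldn4: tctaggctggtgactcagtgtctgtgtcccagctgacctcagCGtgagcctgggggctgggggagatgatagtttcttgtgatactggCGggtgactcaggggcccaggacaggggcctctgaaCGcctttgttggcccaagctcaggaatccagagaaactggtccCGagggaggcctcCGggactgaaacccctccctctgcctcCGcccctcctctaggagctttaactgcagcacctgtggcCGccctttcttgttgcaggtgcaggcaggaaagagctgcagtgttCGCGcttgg
Cldn2: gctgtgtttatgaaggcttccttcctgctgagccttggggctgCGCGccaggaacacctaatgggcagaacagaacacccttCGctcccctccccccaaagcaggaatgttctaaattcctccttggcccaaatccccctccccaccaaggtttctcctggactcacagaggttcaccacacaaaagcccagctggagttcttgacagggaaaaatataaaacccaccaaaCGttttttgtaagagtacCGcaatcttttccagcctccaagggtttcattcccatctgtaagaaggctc

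*Tjp1* held 31 CpG dinucleotides in this window, *F11r* 19, *Ocln* 17 at the start shown and 24 at its other start. *Cldn3* and *Cldn4* held 9 each, *Cldn15* held 7, *Cldn7* held 7 and 17 at its 2 starts, and *Cldn2* held 5. The signal did not follow this count within the family. *Cldn3*, *Cldn15* and *Cldn7* at its first start had means over the 4 libraries of 12.4, 11.7 and 8.13 around their RefSeq starts. Promoters with 5 to 9 CpG dinucleotides had a median of 0.608 and an upper quartile of 1.07, so these 3 lay far above most of their class, and *Cldn4*, at 3.06, lay above the upper quartile as well. The signal window of the first *Cldn7* start also holds its second start, with 17 CpG dinucleotides and a mean of 11.8. The value of 8.13 therefore cannot be assigned to the first start alone. Without ApcMin/+ replicate 1 the means of *Cldn3*, *Cldn15*, *Cldn7* and *Cldn4* were 8.64, 5.96, 4.25 and 1.98, beside an upper quartile of 1.09. *Cldn2*, in the same class, had a mean of 0.139 and lay under the lower quartile of 0.377. The *Tjp1* promoter, with the most CpG dinucleotides, had a mean of 4.3 and lay between the quartiles of its class, 2.4 and 8.36.

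**Figure D1:**
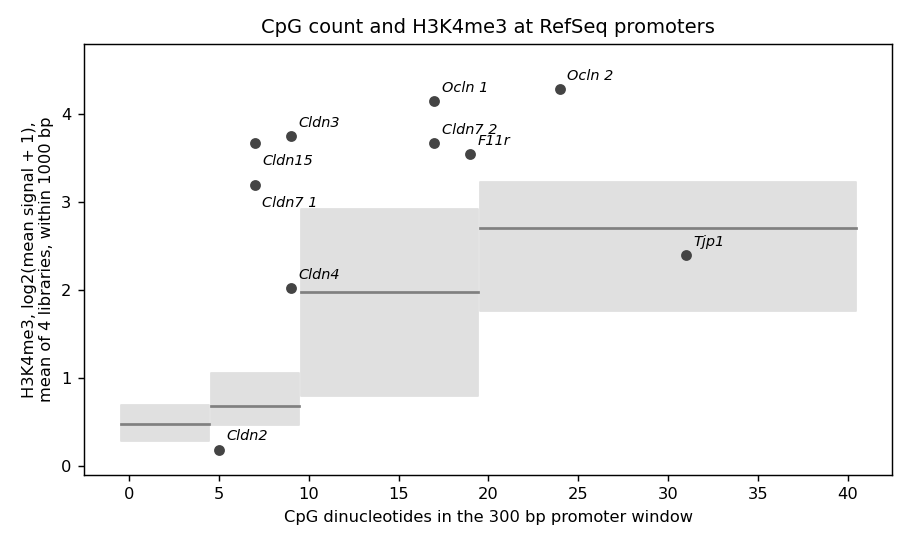
Number of CpG dinucleotides in the 300-base RefSeq promoter (horizontal axis) against the mean H3K4me3 signal of the 4 libraries within 1000 bp of the start, on the log2(signal + 1) scale (vertical axis). Points are the 10 promoters of 8 junction genes, grey bands run from the lower to the upper quartile of all promoters in a CpG class and grey lines are class medians, with the last class drawn only to the edge of the plot. *Cldn3*, *Cldn4*, *Cldn15* and both starts of *Cldn7* lie above the band of their class, as do *Ocln* and *F11r*, and *Cldn2* lies below it.

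Short sequence motifs were searched on both strands of the same windows. The SP/KLF letters GGGCGG (reverse CCGCCC) occurred in 8 of the 10 junction promoters, from 7 genes, and in 35.7% of all promoters. The E-box CAGGTG (reverse CACCTG), the letters bound by the repressors Snail and Zeb, occurred in 6 of the 10, from *Cldn3*, *Cldn4*, *Cldn7*, *F11r* and *Ocln*, and in 20.2% of all. The 2 *Ocln* windows overlap and share sequence, so they are not separate cases. *Cldn2* was the 1 junction promoter with the TATA letters TATAAA (reverse TTTATA), 35 to 30 bases before its RefSeq start, against 13.6% of all promoters. None of the 10 held the Grainyhead-like letters AACCNGTT (2.09% of all), the TCF/LEF letters CTTTGAT (3.73%) or CTTTGAA (5.14%), the HNF4 letters CAAAGTNCA (1.41%) or the CDX letters TTTATNG (10.9%). A match is a description of these letters, and its absence concerns this window alone.

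The scraped cells carried the marks of absorptive epithelium. Of 12 enterocyte markers, 11 had a mean signal of at least 2, beside 9930 of 21938 promoters. Among them was *Vil1*, a microvillus protein, with 12.1 and 4.55 in the wild-type and 33.1 and 6.97 in the ApcMin/+ libraries. *Fabp2* had 1.39 and 1.68 in the wild-type and 9.95 and 2.6 in the ApcMin/+ libraries. Its mean reached 2 through ApcMin/+ replicate 1. None of the 10 immune, 10 mesenchymal or 8 endothelial markers reached that level, and of 9 secretory markers only *Atoh1*, a fate regulator, did. *Atoh1* reached it through ApcMin/+ replicate 1, at 4.63, with 0.955 and 1.32 in the wild-type pair and 1.94 in ApcMin/+ replicate 2. Summed over the immune markers, the signal came to 7.45 and 6.36 in the wild-type and 12.5 and 9.78 in the ApcMin/+ libraries. The largest part of the last of these sums came from *Cd74*, at 3.57. The immune markers did not all differ in the same direction between the genotypes. The part of this immune signal in the results below was not tested. In a mixed tissue, a lower signal cannot be told apart from fewer cells that carry the mark.

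*Ocln*, occludin, had the highest mean level of the 9 genes. It showed a signal of 12.9 and 7.75 in the wild-type pair and 38.7 and 7.76 in the ApcMin/+ pair, from 37, 74, 287 and 85 fragments. It stood at percentiles 99.4, 99.8, 99.7 and 97.7 of all promoters in the 4 libraries, so its place near the top was common to both genotypes. ApcMin/+ replicate 2 lay within the range of the wild-type libraries, at almost the same value as wild-type replicate 2. The group means were 10.3 ± 3.65 in wild-type and 23.2 ± 21.9 in ApcMin/+ (SD, n = 2).

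*F11r* encodes junctional adhesion molecule A, an immunoglobulin-like protein of the junction. Here the signal reached 5.17 and 4.13 in the wild-type pair and 26.3 and 6.15 in the ApcMin/+ pair, from 15, 40, 195 and 67 fragments. Both ApcMin/+ libraries lay above both wild-type libraries, but the lower of them exceeded the higher wild-type library by less than the counting error, since its 95% Poisson interval runs from 4.74 to 7.77. The group means were 4.65 ± 0.739 and 16.2 ± 14.2 (SD, n = 2), a ratio of 3.49 that falls to 1.32 without ApcMin/+ replicate 1. The start of *Gm26641*, a long intergenic noncoding RNA on the opposite strand, lies 217 bp from that of *F11r*, and the mark in this window cannot be assigned to one of the pair.

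Among the claudins known to tighten the barrier, *Cldn3* and *Cldn4* are neighbours on chromosome 5, with starts 39280 bp apart and pointing away from each other. *Cldn3* had a signal of 13.4 and 5.0 in the wild-type pair and 23.8 and 7.5 in the ApcMin/+ pair, from 38, 48, 177 and 82 fragments. Its lower ApcMin/+ value lay between the wild-type values. *Cldn4* had 1.5 and 2.25 in the wild-type and 6.31 and 2.2 in the ApcMin/+ libraries, from 4, 22, 47 and 24 fragments. It was thus lower than *Cldn3* in each of the 4 libraries, although both promoters have the same number of CpG dinucleotides. The wild-type mean of *Cldn4*, 1.87 ± 0.528 (SD, n = 2), is under the minimum of 2, and this promoter entered the test through ApcMin/+ replicate 1.

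*Cldn7*, a claudin found along the lateral membrane of epithelial cells as well, had a signal of 4.79 and 3.48 in the wild-type pair and 19.8 and 4.49 in the ApcMin/+ pair. *Cldn23*, a less studied claudin, had 14.3 and 4.56 in the wild-type and 20.2 and 7.47 in the ApcMin/+ libraries. At both genes ApcMin/+ replicate 2 lay within the wild-type range. *Cldn23* was the highest of the 9 genes in wild-type replicate 1, at percentile 99.7 of all promoters, and it ranked 3 or 4 in the 3 deeper libraries.

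*Cldn3* had group means of 9.22 ± 5.96 in wild-type and 15.7 ± 11.5 in ApcMin/+ (SD, n = 2), *Cldn7* of 4.13 ± 0.924 and 12.1 ± 10.8, and *Cldn23* of 9.43 ± 6.9 and 13.8 ± 9.0. The ApcMin/+ libraries lay far apart at all 3 of these genes, and the wild-type libraries at *Cldn3* and *Cldn23* but not at *Cldn7*. *Cldn7* lies at chr11:69964779-69967885 on the plus strand and *Cldn23* at chr8:35824712-35826559 on the minus strand.

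The channel-forming claudins differed strongly. *Cldn15* had a signal of 4.0 and 1.79 in the wild-type pair and 11.9 and 3.34 in the ApcMin/+ pair, with ApcMin/+ replicate 2 again between the wild-type values. The group means were 2.9 ± 1.56 and 7.6 ± 6.03 (SD, n = 2), and the gene lies at chr5:136966616-136975858 on the plus strand. *Cldn2*, on the X chromosome, had 0.0 and 0.104 in the wild-type and 0.142 and 0.321 in the ApcMin/+ libraries, from 0, 1, 1 and 4 fragments. In every library the upper end of its 95% Poisson interval, at most 1.29, lay under the minimum of 2. These values are below the genome-wide mean, at percentiles 6.81 to 19.1 of all promoters, and *Cldn2* was not tested. A level of the mark under these upper ends was not detectable at this depth. Its 2 further annotated starts, 1959 and 5253 bp downstream, had means of 0.366 and 0.279.

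*Tjp1*, which encodes the scaffold ZO-1, had a signal of 0.697 and 0.209 in the wild-type pair and 0.142 and 0.742 in the ApcMin/+ pair at its gene 5′ end, and was not tested there. This end, at position 65527781 of chromosome 7, is its most upstream annotated start. The mark lay elsewhere in the gene. Around the annotated start of highest signal, at 65371015 and 156766 bp downstream, the values were 3.83, 2.19, 9.94 and 2.96 in the same order, from 11, 21, 74 and 32 fragments. The signal at this inner start was higher than at the gene 5′ end in all 4 libraries, so the value at the gene 5′ end does not stand for the whole gene.

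**Figure D2:**
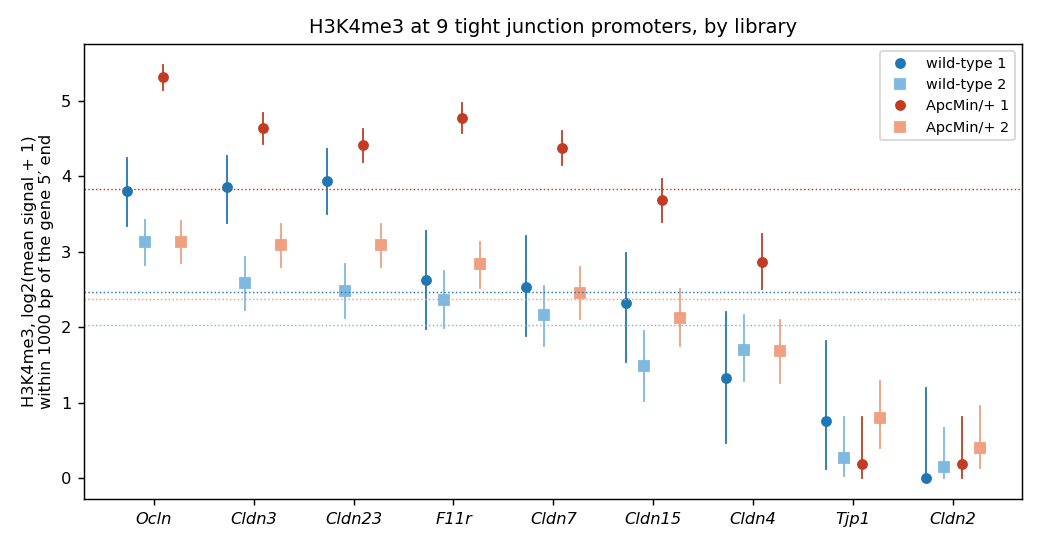
Mean H3K4me3 signal within 1000 bp of the gene 5′ end, as log2(signal + 1), for the 9 junction genes in order of their mean over the 4 libraries. Points are single libraries, bars are 95% Poisson intervals for counting error and dotted lines are the median tested promoter of each library. ApcMin/+ replicate 1 is the highest library at the 7 genes on the left, whereas *Tjp1* and *Cldn2* lie near 0 in all 4.

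By mean over the 4 libraries the order was *Ocln* (16.8), *Cldn3* (12.4), *Cldn23* (11.6), *F11r* (10.4), *Cldn7* (8.13), *Cldn15* (5.25), *Cldn4* (3.06), *Tjp1* (0.447) and *Cldn2* (0.142). Neighbours in this order were ranked the same way in all 4 libraries for 3 of the 8 pairs, namely *F11r* above *Cldn7*, *Cldn7* above *Cldn15* and *Cldn4* above *Tjp1*. The other 5 pairs were ranked so in 3 of 4 libraries, and their means did not differ beyond the spread between libraries. These are values per base over windows of equal length and can be compared between genes.

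No junction promoter passed the test of ApcMin/+ against wild-type across all promoters, and *F11r* had the largest difference. Of the 7 that could be tested, 0 passed an adjusted p of 0.05 in limma with Benjamini-Hochberg adjustment over 9930 promoters, and 0 had an unadjusted p under 0.05. Over all tested promoters 0 were called, which is 0%, and 132 had an unadjusted p under 0.05. The differences of the 7 on the log2(signal + 1) scale ran from 0.54 at *Cldn23* to 1.31 at *F11r*, with adjusted p between 0.683 and 0.716. All 7 were above 0, with a median of 0.76, and 99.2% of all tested promoters were above 0, with a median of 0.85. *F11r*, with the largest of them, had a standard error of 1.2, about as large as its difference. A comparison of 2 libraries with 2 cannot go below p = 0.333 in a two-sided exact permutation test. The exact p was 0.333 at *F11r* and 0.667 at each of the other 6.

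Only *F11r* of the 7 tested promoters had both ApcMin/+ libraries above both wild-type libraries, against 38.5% of all tested promoters. None of the 7 had both below, against 0.161% of all. At the other 6 ApcMin/+ replicate 2 lay within the wild-type range, as it did at 52.3% of all tested promoters. ApcMin/+ replicate 1 was 2.7 to 4.98 times as high as replicate 2 at the 7 promoters. Without replicate 1 the median difference fell from 0.76 to 0.11, with 4 of the 7 promoters above 0. Without replicate 2 the median rose to 1.78, with differences from 1.2 at *Cldn23* to 2.28 at *F11r*. That comparison rests on a single ApcMin/+ library, the one highest at most promoters, and its p-values are not given. *Cldn4* entered the test through this same library. Without wild-type replicate 1 the median was 1.27, and without wild-type replicate 2 it was 0.58.

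Relative to the median promoter of each library, the junction promoters differed between the genotypes in both directions, and none passed the test. Centring sets each library's median tested promoter to 0 on the log2(signal + 1) scale. The median of the 7 promoters then stood at 0.16 and 0.34 in the wild-type pair and at 0.58 and 0.47 in the ApcMin/+ libraries. The centred differences between the genotypes had a median of −0.09, ran from −0.31 at *Cldn23* to 0.46 at *F11r*, and were above 0 at 3 of the 7. The median of the differences and the difference of these library medians thus point in opposite directions, and the mean over the 7 promoters differed by 0.02. None of the 7 passed the threshold in the centred limma fit, where each had an adjusted p of 0.9995 and none an unadjusted p under 0.05. In that fit 12 of all tested promoters did, or 0.121%.

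*F11r* stood at 0.16 and 0.34 above the median promoter in the wild-type libraries and at 0.94 and 0.47 in the ApcMin/+ libraries. It was the 1 of 7 whose centred groups did not overlap with ApcMin/+ higher, against 13.1% of all tested promoters, and 0 of 7 had ApcMin/+ lower, against 14.3%. Its centred difference was 0.46 with a standard error of 0.28, and stayed between 0.22 and 0.7 when each library was left out in turn. *Ocln* stood at 1.33, 1.11, 1.48 and 0.76 in the same order, the highest of the 9 genes in the last 3 of these libraries. *Cldn4* and *Cldn15* stood below the median promoter in all 4 libraries, and *Cldn3*, *Cldn23*, *Ocln*, *Cldn7* and *F11r* above it in all 4.

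**Figure D3:**
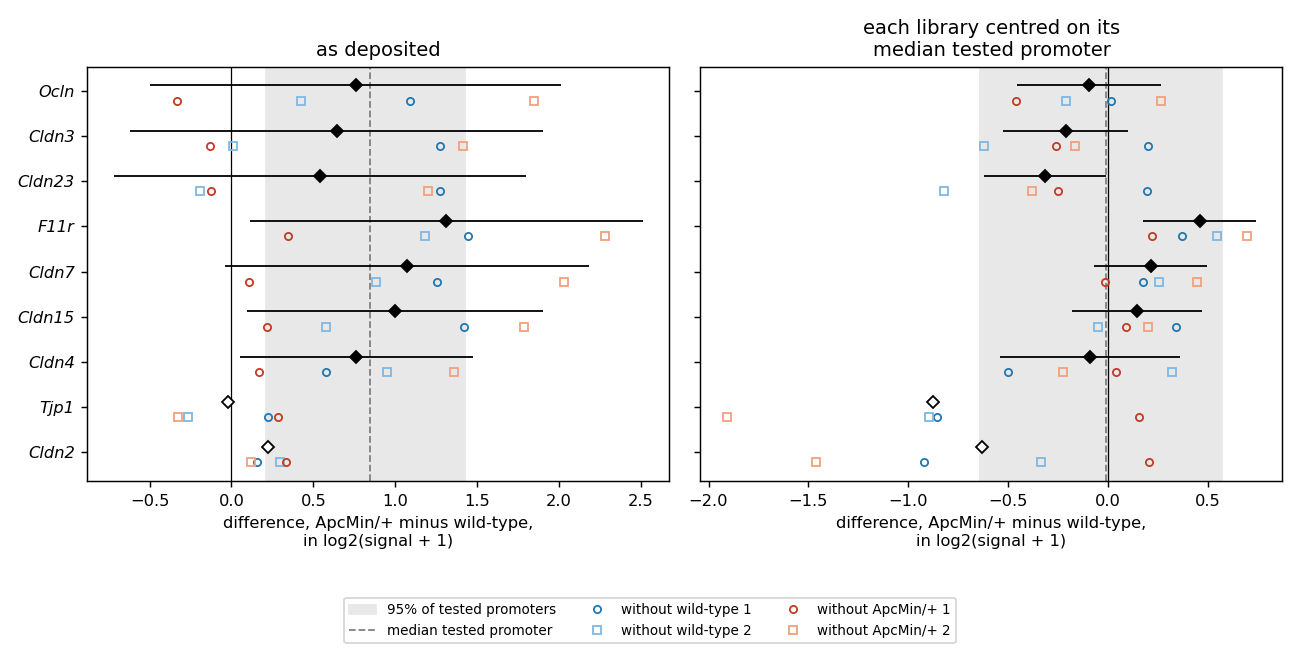
Difference between ApcMin/+ and wild-type in log2(signal + 1) at the 9 junction genes, as deposited (left) and after centring every library on the median tested promoter (right). Diamonds are the differences, with standard errors from limma for the 7 tested genes and open for the 2 not tested, open circles and squares leave out 1 library, the grey band holds 95% of all tested promoters and the dashed line is their median. As deposited, the 7 tested genes lie inside the band, between 0.54 and 1.31, and after centring they lie on both sides of 0.

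The shape of the mark around the starts differed between the genes. At *Ocln* the mark lay on both sides of the 5′ end, and the stretch above 5 times the genome-wide mean was 3500 bp long in the mean of the 4 libraries. Over 1000 bp downstream and upstream the wild-type libraries had 14.4 against 11.4 and 9.46 against 6.03, and ApcMin/+ replicate 2 had 9.23 against 6.29. In ApcMin/+ replicate 1 the upstream side was the higher, at 44.1 against 33.2. The highest 100-bp bin began 200 bp upstream in wild-type replicate 1 and ApcMin/+ replicate 1, and 1100 bp downstream in the other 2 libraries. At *F11r*, *Cldn3*, *Cldn4*, *Cldn7* and *Cldn23* the downstream side was the higher in all 4 libraries. *F11r* had 45.7 downstream and 6.9 upstream in ApcMin/+ replicate 1, and 7.1 and 3.19 in the mean of the other 3 libraries. In that mean *Cldn3* had 12.6 and 4.72, *Cldn4* had 3.36 and 0.607, and *Cldn23* had 11.6 and 5.99.

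*Cldn3* is a short gene of 1259 bp, and in the mean of the 4 libraries its stretch of 4900 bp ran on to 4099 bp downstream of the start, beyond the annotated end of the gene. From 1000 to 3000 bp downstream it held a mean of 10.1 and 6.47 in the wild-type pair, against 47.0 and 6.81 in the ApcMin/+ libraries. The stretch at *Cldn23*, of 1848 bp, was 2000 and 2100 bp long in the wild-type libraries, 5000 bp in ApcMin/+ replicate 1 and 2000 bp in replicate 2. At *Cldn3* it was 4200 and 4500 bp in the wild-type libraries, and 5000 and 3300 bp in the other group. From 1000 to 3000 bp downstream *Cldn23* had 1.37 and 1.19 in the wild-type and 5.65 and 2.68 in the ApcMin/+ libraries. The stretch at *Cldn3* was thus the longer of the pair in 3 libraries and of equal length in ApcMin/+ replicate 1. Stretch lengths depend on depth and are not fully comparable between libraries. A single fragment can bring a 100-bp bin to 4.47 in wild-type replicate 1, above the threshold of 1.83. In ApcMin/+ replicate 1 it brings a bin to 1.58, under the threshold.

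**Figure D4:**
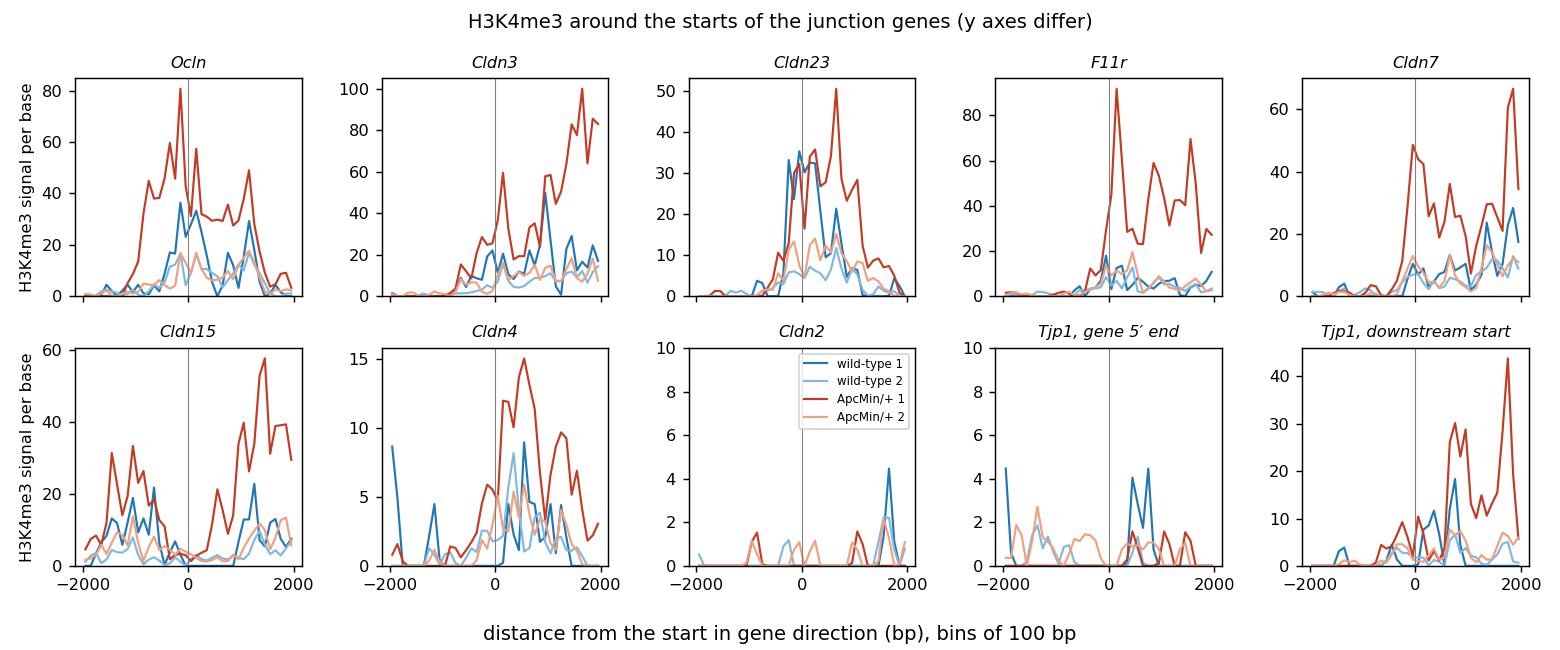
H3K4me3 signal per base in bins of 100 bp (vertical axes, which differ between panels) against the distance from the start in the direction of the gene (horizontal axes), for the 9 gene 5′ ends and for the RefSeq start of *Tjp1*. Lines are single libraries. *Ocln* has the mark on both sides of the start, and *Cldn2* and the 5′ end of *Tjp1* stay under 5. In ApcMin/+ replicate 1 the highest bins drawn for *Cldn3*, *Cldn7* and *Cldn15* begin 1600, 1800 and 1400 bp downstream. The place of the highest bin varies between libraries.

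At *Cldn15* the annotated 5′ end fell into a dip between 2 stretches of signal. Within 500 bp of it the signal was 1.39 and 1.5 in the wild-type and 4.6 and 3.14 in the ApcMin/+ libraries. Around a second annotated start 1253 bp downstream, which is also the RefSeq start, the values within 500 bp were 9.66, 4.33, 35.6 and 6.9. All 4 libraries were higher there. *Cldn7* showed a similar shift, with values within 1000 bp of 13.9, 7.67, 32.2 and 8.48 around a start 2139 bp downstream of its 5′ end, against the 4.79, 3.48, 19.8 and 4.49 given above. The inner start of *F11r*, 25315 bp downstream, had a mean of 0.802 and the *Cldn15* start 7338 bp downstream one of 0.992, both under the minimum of 2.

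**Figure D5:**
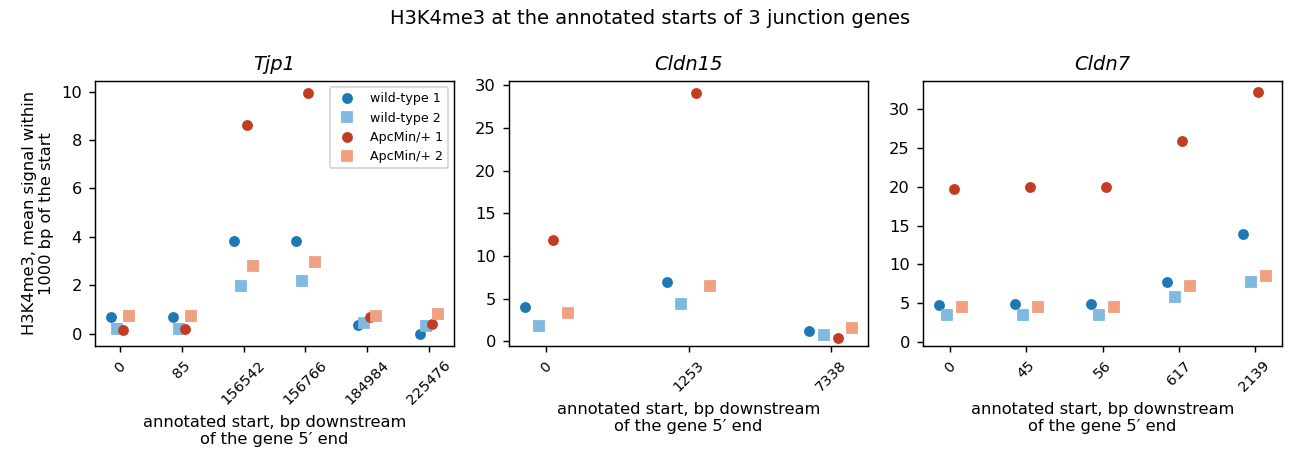
Mean H3K4me3 signal within 1000 bp (vertical axes) of each annotated transcript start of *Tjp1*, *Cldn15* and *Cldn7*, placed in order of the distance from the gene 5′ end in bp (horizontal axes, not to scale). Points are single libraries. The *Tjp1* starts 156542 and 156766 bp downstream and the *Cldn15* start 1253 bp downstream are higher than the gene 5′ end in all 4 libraries.

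With the annotated start of highest signal used for each gene, 8 of the 9 junction genes could be tested, *Tjp1* included, and *Cldn2* still could not. The median difference of the 8 was 0.7, beside 0.86 over 10796 promoters, and after centring it was −0.19 beside −0.03, and none passed the threshold in limma. *F11r* was again the only one whose groups did not overlap, against 37.9% of all. The difference at *Tjp1* was 0.74 with a standard error of 0.88 and an adjusted p of 0.682.

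The other claudins had little of the mark at their gene 5′ ends. Their further annotated starts are not described here, so a low value does not stand for the whole gene. Of 17 measured, 1 had a mean signal of at least 2 at this end, namely *Cldn12*. It had 3.63 and 3.39 in the wild-type and 8.59 and 4.01 in the ApcMin/+ libraries. Both ApcMin/+ values lay above both wild-type values there, and the adjusted p was 0.683 by limma. The other 16 had means from 0.267 to 1.17, with *Cldn5*, the claudin of endothelium, at the upper end. Summed over the 17 genes the signal was 17.7 and 12.0 in the wild-type and 16.2 and 16.1 in the ApcMin/+ libraries, whereas summed over the 9 junction genes it was 56.8 and 29.3 against 147.2 and 40.0. The rise in ApcMin/+ replicate 1 was thus seen in the second sum and not in the first, although *Cldn12* was highest in that library. The first sum is made up mostly of windows under the minimum of 2. More than 5000 bp from any gene start, the mean signal was 0.231 in ApcMin/+ replicate 1 and 0.324 in replicate 2. It was 0.321 and 0.343 in the wild-type pair. The difference between the sums was not tested.

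Further genes of the junction were counted in lists, and none of their promoters passed the threshold or the unadjusted p of 0.05 in limma. Of 10 other membrane proteins of the junction 5 could be tested, with a median difference of 0.94. *Marveld3*, a relative of occludin, had the largest difference, 1.73 with a standard error of 0.95, from 1.98 and 2.33 in the wild-type and 15.6 and 5.59 in the ApcMin/+ libraries. *Marveld2*, the tricellulin gene, had the smallest, 0.51. *Lsr*, a receptor at the contacts of 3 cells, had 1.02 and *Cxadr*, a cell adhesion protein, had 0.83. Of these 5 only *Marveld3* had groups that did not overlap, against 38.5% of all tested promoters.

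Of 24 plaque and polarity genes 18 could be tested, with a median difference of 0.83, and at 5 of them, a share under the 38.5% of all tested promoters, both ApcMin/+ values exceeded both wild-type values. The largest differences were 1.07 at *Rab13*, a small GTPase of junction traffic, and 1.07 at *Amot*, and the smallest was 0.24 at *Patj*. Of 14 genes of adherens junctions and desmosomes 13 could be tested, with a median of 0.72, and at 2 of them the groups did not overlap, against the same 38.5%. *Ctnna1* and *Ctnnd1*, which encode catenins, had 1.5 and 1.32, and *Nectin1* and *Afdn* had 0.41 and 0.52. The medians of these lists stood beside 0.85 over all tested promoters. Without ApcMin/+ replicate 1 the medians of the 3 lists were 0.04, 0.06 and −0.02, beside 0.13 over all, and after centring they were 0.09, −0.02 and −0.14.

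The tested promoters nearest to the average of the 9 junction genes, by Euclidean distance over the 4 libraries on the log2(signal + 1) scale, were *Ociad1* (0.0782), *Prelid1* (0.0783) and *Zfp948* (0.0804). The likeness is in level and in the order of the 4 libraries, and ApcMin/+ replicate 1 was the highest at 98.6% of all tested promoters. The average includes *Tjp1* and *Cldn2*, which lie near 0 and lower it. *Ociad1* had 4.18 and 2.69 in the wild-type and 9.46 and 3.48 in the ApcMin/+ libraries.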

How the data were processed

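CUT&RUN libraries for H3K4me3 came from villus cells of 2 wild-type and 2 ApcMin/+ mice. Per the methods and the labels, the authors trimmed the read pairs, mapped them to mm10 with Bowtie2, removed duplicates with Picard and reads of low mapping quality with samtools, and left out fragments outside a set size range. The deposited values are signal, the coverage per base from HOMER, scaled by the authors to 10000000 tags and to a fragment length of 100 bp, without pooling. Fragments were obtained by dividing summed signal by the track sum per tag, and Poisson intervals from them cover counting error only. The mean signal within 1000 bp of each GENCODE M21 gene 5′ end was computed (Python 3.11.15, numpy 2.4.6, pandas 2.3.3, scipy 1.17.1).

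Promoters with a mean of at least 2 were tested on log2(signal + 1), which understates changes at low levels, with limma 3.58.1 (R 4.3.3) with a trend, genotype as the only term, Benjamini-Hochberg adjustment and a threshold of 0.05. The methods give 2 mice for each genotype. The variance behind each p-value was drawn by limma largely from promoters of like level, not from the 4 values of that promoter alone. It holds differences between mice together with those between libraries, such as the general height of ApcMin/+ replicate 1. The genes named were all 9 members and, in each list, the 2 tested genes of highest and the 2 of lowest difference. Also named were the 3 most similar promoters, genes starting within 2000 bp, markers and examples of levels (*Vil1*, *Fabp2*, *Atoh1*, *Cd74*, *Cldn5*). The values of 1 gene that this rule names are not reported here. The members and lists were chosen with earlier results of these data known. Alternatives were the scaling, pseudocount, filter, window, start, a replicate block and leaving out each library. The H3K9me3, total H3, no-antibody, RNA-seq and older libraries were not analysed here.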

Additional observations from a re-analysis of the deposited data

How the results depend on the processing

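The count of junction promoters past the threshold was 0 in every alternative that kept all 4 libraries. Each fit with a library left out holds a single library in 1 group, so its counts past the threshold are not given. For all promoters the count of 0 became 12 with centring, 2 with quantile normalization, 13 with centring at the start of highest signal, chosen after seeing the data, and 0 to 6479 when libraries were left out, centred or not. A replicate block gave 1 call over all promoters and 0 at the junction genes. The labels share replicate numbers, and the libraries were not taken as paired. Deviations of same-numbered libraries correlated at 0.196 over 9930 promoters, with only 2 pairs. That value takes no account of a shift common to a whole library, such as the higher median promoter of replicate 1 in both genotypes. It therefore cannot decide whether the libraries are paired. Junction promoters with ApcMin/+ above wild-type without overlap numbered 1, against 38.5% of all tested promoters. Their number became 2 with scaling to background or without a filter, and 3 with the window of 500 bp. Without a filter the added promoter was *Cldn2*, from 0, 1, 1 and 4 fragments. When libraries were left out, with a single library in 1 group, the number ranged from 1 to 7. The shares of all promoters in these alternatives are not given, so the changes cannot be set against them. The median junction difference of 0.763 became −0.0909 with centring, −0.0874 with quantile normalization and −0.189 with centring at the start of highest signal, and ranged from −0.052 to 1.78 with libraries left out. Relative to the median promoter it was −0.0909 and became 0.0418 with a pseudocount of 5, 0.556 without a filter and 0.131 with 500 bp, and ranged from −0.052 to 0.202 with libraries left out. The shift under centring and quantile normalization follows from their construction, and the cause of the other changes was not tested.
Single genes changed sign under centring (*Cldn3* −0.212, *Cldn4* −0.0909, *Cldn23* −0.315, *Ocln* −0.096), under quantile normalization (*Cldn3* −0.184, *Cldn4* −0.0874, *Cldn23* −0.252, *Ocln* −0.169) and with centring at the start of highest signal (*Cldn3* −0.246, *Cldn4* −0.125, *Cldn7* −0.245, *Cldn23* −0.349, *Ocln* −0.235). With libraries left out, centred or not, *Cldn3* ranged from −0.622 to 1.42, *Cldn4* from −0.502 to 1.36, *Cldn7* from −0.017 to 2.03, *Cldn15* from −0.052 to 1.78, *Cldn23* from −0.823 to 1.27 and *Ocln* from −0.459 to 1.85. *F11r* kept its sign in all alternatives, from 0.22 to 2.28. The minimum of 2 was reached at 7 junction promoters, and at 6 or 7 with libraries left out, an alternative added after seeing the data, as were the shapes, list medians and CpG values without ApcMin/+ replicate 1. The median tested promoter of wild-type replicate 1 held 13.0 fragments, which limits all values that rest on it.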
